A study of Mus musculus with 14 samples.

Results

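Chemokines are small secreted proteins that steer leukocytes along a gradient, and they act on G protein-coupled receptors named after the ligand class they bind (CC, CXC, CX3C and XC). Ligands are commonly divided into inflammatory ones, which damaged epithelium, endothelium and macrophages make on demand, and homeostatic ones, which position cells in healthy tissue. Atypical receptors bind chemokines without G protein signalling and remove or transport them. In the obstructed kidney, Ccr2 and Cx3cr1 mark monocytes and macrophages, Cxcr6 is found on T cells, and Cxcl16 and Cx3cl1 are made as membrane-bound ligands.

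The genes described here were every RefSeq protein-coding autosomal gene of the mouse whose symbol reads Ccl, Cxcl, Cx3cl, Xcl, Ccr, Cxcr, Cx3cr, Xcr or Ackr followed by a digit. The rule found 61 of 20665 genes, of which 59 are described. Ccl21c had no chromosome position and was not scored. H3K9 crotonylation (H3K9cr) and H3K9 acetylation (H3K9ac) were mapped by ChIP-seq, in which chromatin fragments are pulled down with an antibody and sequenced, in whole kidneys, obstructed by unilateral ureteric obstruction (UUO) or not, of mice that were wild-type (WT) or ACSS2-/-. UUO ties and cuts the left ureter and leads to inflammation and fibrosis, and ACSS2 makes acyl-CoA for histone acylation. According to the methods the mice were C57BL/6J aged 6 to 8 weeks, the deletion was made with CRISPR/Cas9 and is present in every cell of the mouse, and controls were sham-operated. The length of obstruction for these kidneys was not given in the sources used here.

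H3K9cr had 2 libraries in each of the 4 groups, and H3K9ac had 2 in WT UUO, 2 in ACSS2-/- UUO, 1 in WT control and 1 in ACSS2-/- control. Each library came as a list of peaks without heights, so each gene was scored by the length of sequence covered by peaks within 3 kb of either gene end (peak cover, in kb) and by whether any peak lay there. A library had 15988 to 45014 peaks, and read depth is unknown. The labels follow each antibody with a number that goes up by 1 from group to group. Whether this is a real difference between antibodies or an entry error is not known, and if real it cannot be told apart from group. The names of the peaks carry a mouse number that differed from the replicate number of the label in 4 of 14 lists. WT UUO H3K9cr replicate 1 was named as mouse 3, ACSS2-/- UUO H3K9cr replicate 1 as mouse 3, ACSS2-/- UUO H3K9ac replicate 1 as mouse 2 and ACSS2-/- UUO H3K9ac replicate 2 as mouse 3. Acss2, the deleted gene, had 0.76 to 2.82 kb of cover in the ACSS2-/- libraries and 0.869 to 2.32 kb in the WT libraries, which checks nothing about the deletion because peaks at the gene ends need not touch the deleted exons. A list held 0 to 14 peaks on chromosome Y. In ACSS2-/- UUO, the lists named as mouse 3 held 14 (H3K9cr) and 13 (H3K9ac), and those named as mouse 2 held 0 and 0. The sex of the mice was not established here, and a mix of sexes within groups was not tested. Separate mice are not stated in the labels, and p-values measure only the spread between these libraries.

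A peak lay at 9 of the 59 genes in all 14 libraries, at 28 in some of them and at 22 in none. In a single library 12 to 27 of the 59 had a peak, where 55.3 to 64.7% of all 20560 genes did. The 9 constant genes were the receptors Cxcr4, Cxcr5, Ccr10 and Xcr1, the scavenging receptor Ackr3, and the ligands Cxcl12, Cxcl16, Ccl25 and Cx3cl1. All 8 H3K9cr libraries also had a peak at Ccl27a, Cxcl1 and Cxcl10. The 22 genes without a peak in either mark included Ccl2, the main attractant of Ccr2-bearing monocytes, its neighbours Ccl8 and Ccl11, Ccl20, the ligand of Ccr6, the interferon-induced ligand Cxcl9, the B cell attractant Cxcl13 and the neutrophil receptor Cxcr2. For the constant genes, the window of Cxcl16 also holds ends of Med11 and Zmynd15, that of Ccr10 ends of Cntnap1 and Plekhh3, and those of Ccl25, Cxcr5 and Xcr1 an end of Elavl1, Bcl9l and Fyco1, so a peak there need not belong to the chemokine gene.

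**Figure D1:**
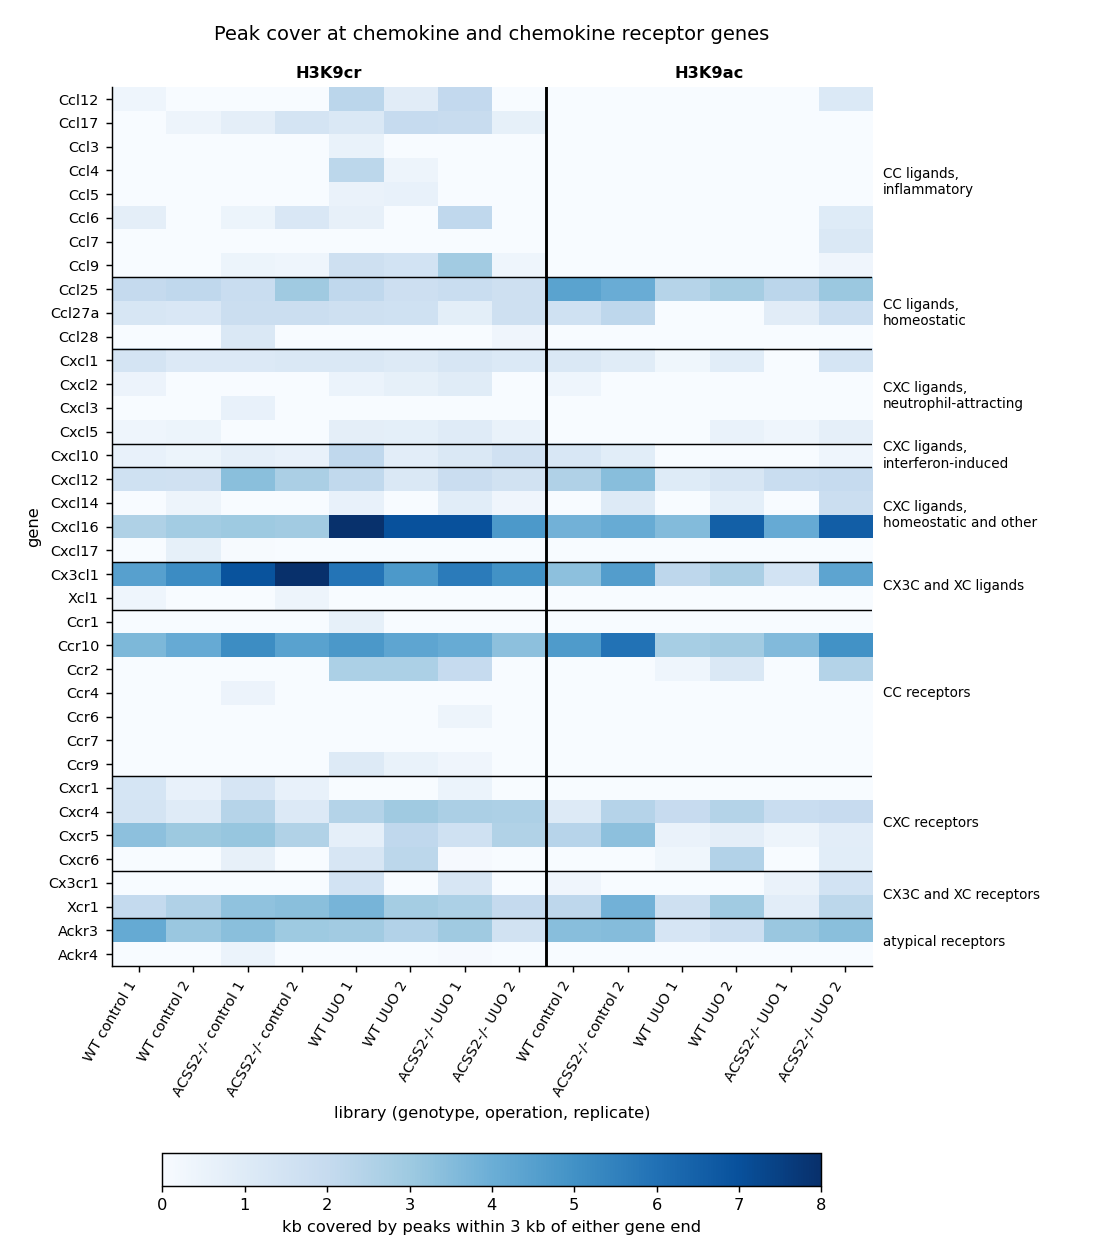
Peak cover (kb within 3 kb of either gene end, colour) of the 37 genes with a peak in at least 1 library, in rows grouped by role, for each of the 14 libraries in columns. Ccr2 is blank in all 6 control libraries, and Cxcl16 is darkest in WT UUO H3K9cr, at 7.95 and 6.98 kb.

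The number of loci with an H3K9cr peak, counting genes that shared a peak once, was 18 and 18 in WT control, 22 and 17 in ACSS2-/- control, 26 and 22 in WT UUO and 26 and 17 in ACSS2-/- UUO. The means were 22.8 ± 4.27 (SD, n = 4) in UUO and 18.8 ± 2.22 (SD, n = 4) in control, and the groups overlapped. Of all the peak length of a library, 0.107 to 0.128% lay at these genes in the 4 UUO libraries and 0.0656 to 0.0771% in the 4 controls, without overlap. The peak length at the genes themselves overlapped, at 31.4 to 55.6 kb in UUO and 30.7 to 42.3 kb in control, while all peaks of a library covered 29.4 to 44.6 Mb in UUO and 41.7 to 64.6 Mb in control. For H3K9ac the share was 0.103 to 0.141% in UUO and 0.0786 to 0.0951% in control, while 12 to 21 loci had a peak in UUO and 13 and 14 in control. H3K9ac cover at the genes was 18.3 to 43.6 kb in UUO, under both controls (32.5 and 40.2 kb) in 3 of the 4 libraries, and all H3K9ac peaks covered 17.7 to 30.9 Mb in UUO and 34.2 and 51.1 Mb in control. Of 15 inflammatory CC ligands, 7 and 5 had an H3K9cr peak in WT UUO and 2 and 1 in WT control, against 4 and 2 in ACSS2-/- UUO and 3 and 3 in ACSS2-/- control. Of 10 CC receptors, 4 and 3 had one in WT UUO and 1 and 2 in WT control, against 4 and 1 in ACSS2-/- UUO and 2 and 1 in ACSS2-/- control. The groups did not overlap in WT and overlapped in ACSS2-/- for both classes. All genes showed the same pattern of overlap. Of all 20560 genes, 64.5 and 62.8% had an H3K9cr peak in WT UUO and 61.1 and 62.1% in WT control. The shares were 63.9 and 61.2% in ACSS2-/- UUO and 64.4 and 62.1% in ACSS2-/- control. CC homeostatic ligands had 2 to 3 of 9 in every H3K9cr library, control and UUO alike.

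**Figure D2:**
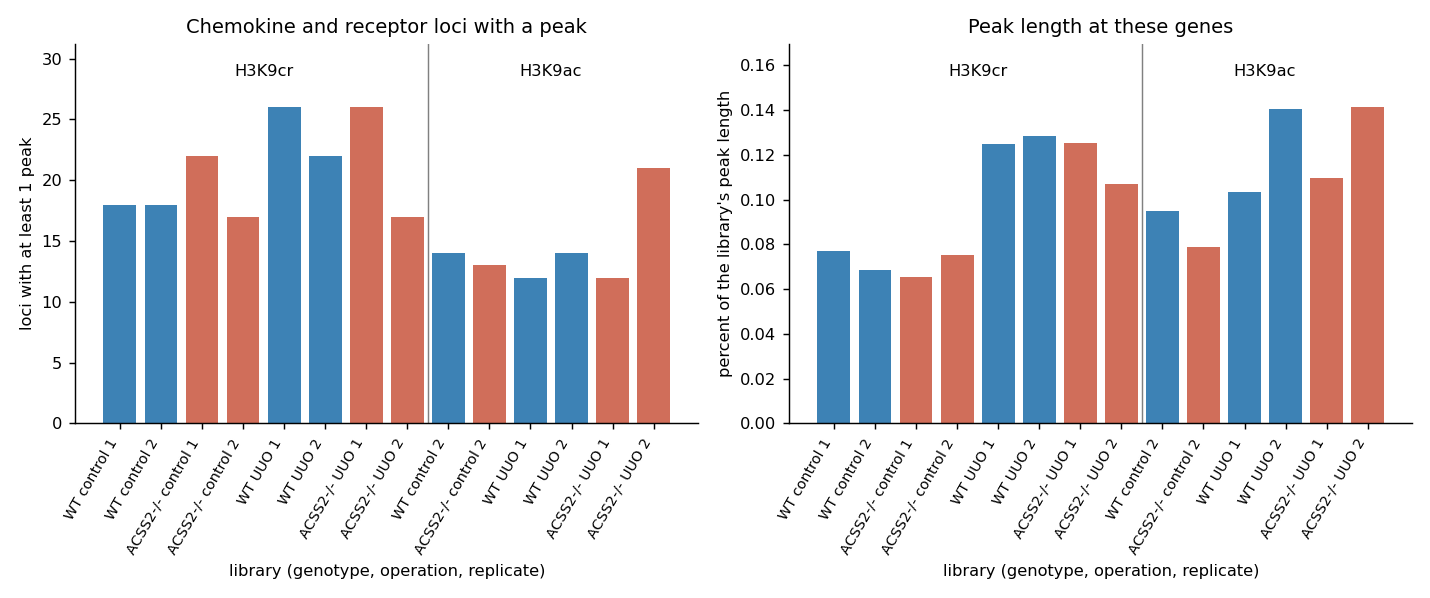
Number of chemokine and receptor loci with at least 1 peak (left, bars) and the percent of the library's peak length that lies at these genes (right, bars) for each of the 14 libraries. On the right every UUO bar of H3K9cr, at 0.107% or more, stands above every control bar, at 0.0771% or less.

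The effect of UUO on H3K9cr was compared over the 4 UUO and 4 control libraries. By presence, none of these genes had a peak in all 4 UUO libraries and in no control, a pattern found at 0.452% of 20560 genes, and none had the opposite pattern, found at 0.268% of genes. With peaks of 500 bp or longer only, Cxcl5 was gained and Cxcr1 lost. The share of all genes so called with such peaks is not given here, so neither is read as a result about these genes. By cover, 4 genes were called higher. In whole kidney, more cells of a type and more mark per cell cannot be told apart.

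Cxcl16, a transmembrane ligand of Cxcr6 at chr11:70454389-70459984, had the widest cover of any member in 3 of the 4 UUO libraries. It measured 2.57 and 2.87 kb in WT control, 2.98 and 2.89 kb in ACSS2-/- control, 7.95 and 6.98 kb in WT UUO and 6.97 and 4.74 kb in ACSS2-/- UUO. No UUO value fell within the control range, and the difference was 3.83 kb (SE 0.519, adjusted p = 0.00686, limma). Both ends of the gene took part, with 1.01 to 1.26 kb at one end in controls against 2.5 to 4.21 kb in UUO, and 1.52 to 1.98 kb at the other in controls against 2.24 to 4.53 kb in UUO.

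Ccr2, the receptor of inflammatory monocytes, at chr9:124101918-124109140, was at 0 in the 4 controls. It had 2.64 and 2.64 kb in WT UUO, 1.98 kb in ACSS2-/- UUO replicate 1 and none in ACSS2-/- UUO replicate 2, a rise of 1.81 kb in the mean (SE 0.383, limma adjusted p = 0.027). Ccr2 passed the filter on cover through UUO libraries alone, and without that filter it was not called (limma adjusted p = 0.124). Cxcr4, the receptor of Cxcl12 at chr1:128588199-128592299, carried a peak in every library and measured 0.958 to 2.4 kb in control and 2.46 to 2.94 kb in UUO. Its rise was 1.2 kb (SE 0.307, adjusted p = 0.0484 by limma), and the lowest UUO value stood just above the highest control value. Cxcl5, a ligand that recruits neutrophils and lies at chr5:90759298-90761625, had 0.353 and 0.436 kb in WT control, none in either ACSS2-/- control, and 0.555 to 0.94 kb in the 4 UUO libraries (difference 0.556 kb, SE 0.132, limma adjusted p = 0.0386).

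These 4 genes were the members called higher, of 30 that passed the filter of cover in at least 2 of 8 libraries, and none was called lower. Over all 13785 genes tested, 2.29% were called higher and 8.94% lower. The median difference was 0.189 kb over the 30 and -0.18 kb over all genes, but a gene that passed the filter through UUO libraries alone could only be higher. After every library was scaled to the same total cover the same 4 were called, 636 genes were called higher and 733 lower, against 315 and 1232 before, and the median over all genes was 0.0408 kb. The calls of Cxcr4, Cxcl5 and Ccr2 were fragile. Leaving out any 1 library ended that of Cxcr4 (limma adjusted p = 0.0616 to 0.152), unless it was ACSS2-/- control replicate 1. That of Cxcl5 ended without any library but ACSS2-/- UUO replicate 2, and that of Ccr2 without any of the 4 controls or either WT UUO library. Blocked by the mouse number of the peaks, limma called 0 of the 13785 genes, the 4 members included (adjusted p = 0.0682 for Cxcl16, 0.0791 for Cxcr4, 0.202 for Ccr2 and 0.269 for Cxcl5), with 2931 genes and 9 members at an unadjusted p under 0.05. Every H3K9cr call in this comparison of 4 UUO and 4 control libraries, those of signalling partners and cell type markers included, ended under that block. Mouse number 1 occurred only in control H3K9cr libraries and number 3 only in UUO ones, so the blocked contrast rests on the libraries numbered 2. Because the block partly follows the operation, the loss of calls under it cannot decide whether they are fragile.

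**Figure D3:**
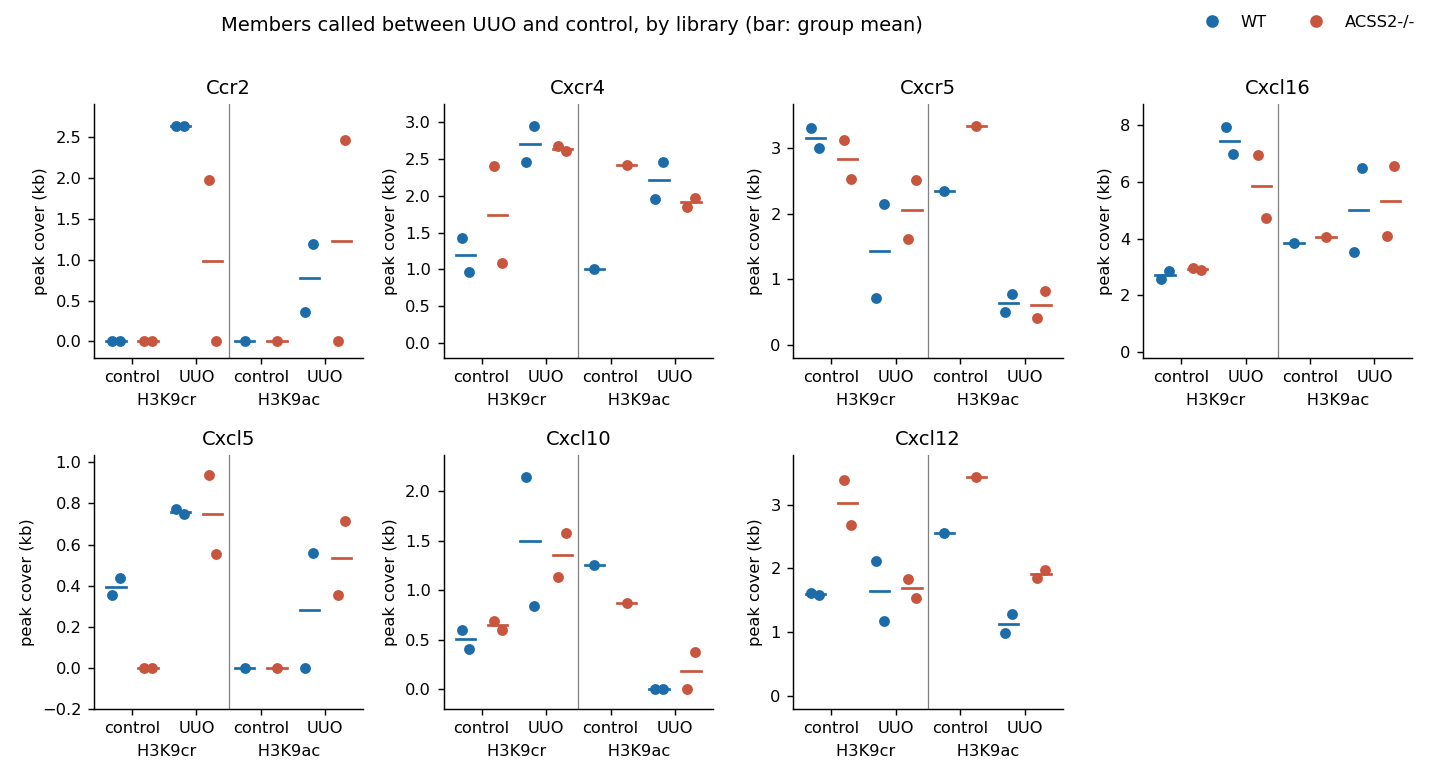
Peak cover (kb) of the 7 genes called between UUO and control in either mark, with 1 point per library, WT in blue and ACSS2-/- in red, and short bars for group means. Ccr2 is at 0 in all controls, and all 4 UUO points of Cxcl16 in H3K9cr, at 4.74 to 7.95 kb, lie above the control points, at 2.57 to 2.98 kb.

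Other members did not pass the test, and their values were as follows. Ccl9, a CC ligand of myeloid cells, had 0, 0, 0.412 and 0.355 kb in the controls and 1.64, 1.49, 2.88 and 0.348 kb in UUO (difference 1.4 kb, limma adjusted p = 0.111). Ccl12, a ligand of Ccr2, had 0.369 kb in 1 control and 2.26, 0.88 and 2.08 kb in 3 of the 4 UUO libraries. Cxcl10, an interferon-induced ligand of T cells, measured 0.407 to 0.692 kb in control and 0.842 to 2.15 kb in UUO, and Cx3cr1, the fractalkine receptor, was at 0 in all controls and had 1.49 and 1.25 kb in the first replicates of WT and ACSS2-/- UUO alone. Cxcl1, a neutrophil attractant of injured epithelium, had 1.08 to 1.43 kb in control and 1.03 to 1.28 kb in UUO. In the other direction, Cxcr1, a neutrophil receptor, had 0.604 to 1.37 kb in the 4 controls and only 0.489 kb in 1 of 4 UUO libraries (difference -0.857 kb, limma adjusted p = 0.0624). Cxcr5, the receptor of follicular B and T cells, whose window is shared with Bcl9l, measured 2.52 to 3.31 kb in control and 0.718 to 2.51 kb in UUO, and Ackr3 2.97 to 4.15 kb against 1.55 to 2.94 kb. Without overlap between UUO and control, 4 members were higher in UUO, as were 1.62% of all genes, and 3 were lower, as were 9.07% of all genes.

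To show the DNA under these windows, the 250 bases before the RefSeq start (GRCm38.p6, 5′ to 3′ on the gene's strand) are given for 6 genes. They are those gained, lost or called in any comparison with the largest H3K9cr differences in UUO that have a promoter entry, and Cxcl16 and Cxcr5 have none. Capitals mark matches on either strand to 6 motifs, which may overlap each other. AP-1 binding sites were searched for with the letters TGANTCA. Sites of the ETS family of leukocyte and endothelial factors were searched for with GGAAGT. The core promoter element called the TATA box, which sets where transcription begins, was searched for with TATAAA. The other motifs were the CCAAT box, the interferon-stimulated response element and the NF-kB site.
Ccr2: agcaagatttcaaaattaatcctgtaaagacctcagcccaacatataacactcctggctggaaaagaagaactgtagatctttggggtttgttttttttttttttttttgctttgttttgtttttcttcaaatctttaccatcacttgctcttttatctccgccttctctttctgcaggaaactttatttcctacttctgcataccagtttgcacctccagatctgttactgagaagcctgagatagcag
Ccl9: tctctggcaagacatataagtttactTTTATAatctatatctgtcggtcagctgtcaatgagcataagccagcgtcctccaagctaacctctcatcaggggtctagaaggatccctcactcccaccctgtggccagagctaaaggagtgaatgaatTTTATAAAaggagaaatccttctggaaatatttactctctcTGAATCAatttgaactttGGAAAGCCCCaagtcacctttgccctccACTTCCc
Ccl12: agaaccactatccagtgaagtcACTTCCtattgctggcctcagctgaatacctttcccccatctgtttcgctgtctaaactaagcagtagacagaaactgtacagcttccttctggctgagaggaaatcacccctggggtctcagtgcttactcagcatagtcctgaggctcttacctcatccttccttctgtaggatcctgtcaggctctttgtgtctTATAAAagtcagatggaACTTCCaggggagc
Cxcr4: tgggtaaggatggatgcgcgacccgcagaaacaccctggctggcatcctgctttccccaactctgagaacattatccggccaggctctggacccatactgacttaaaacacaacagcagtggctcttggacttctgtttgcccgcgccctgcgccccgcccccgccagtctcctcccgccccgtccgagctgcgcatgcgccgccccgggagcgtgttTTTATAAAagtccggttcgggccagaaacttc
Cx3cl1: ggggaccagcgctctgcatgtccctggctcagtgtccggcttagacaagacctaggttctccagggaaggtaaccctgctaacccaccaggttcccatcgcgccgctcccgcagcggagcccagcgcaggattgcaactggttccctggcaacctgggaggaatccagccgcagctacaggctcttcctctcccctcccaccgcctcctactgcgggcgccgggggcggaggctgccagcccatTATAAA
Cxcr1: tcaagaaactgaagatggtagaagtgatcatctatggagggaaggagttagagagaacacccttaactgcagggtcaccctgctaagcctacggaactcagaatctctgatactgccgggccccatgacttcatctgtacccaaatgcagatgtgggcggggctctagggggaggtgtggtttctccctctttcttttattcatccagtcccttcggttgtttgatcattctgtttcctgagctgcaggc

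They lie at chr9:124101933-124102182 on the plus strand for Ccr2, chr11:83578637-83578886 on the minus strand for Ccl9, chr11:82101595-82101844 on the plus strand for Ccl12, chr1:128592300-128592549 on the minus strand for Cxcr4, chr8:94771930-94772179 on the plus strand for Cx3cl1 and chr1:74194632-74194881 on the minus strand for Cxcr1. The Ccl9 stretch held 6 matches, among them an AP-1 match 53 bases and an NF-kB match 35 bases before the start. Ccl12 held 2 ETS matches and a TATA box, and Cxcr4 and Cx3cl1 held TATA box matches only, while Ccr2 and Cxcr1 held no match. Of the 20085 promoter stretches of this length, 6.18% held AP-1, 20.5% ETS, 2.97% the interferon element, 11.7% a TATA box, 35.3% a CCAAT box and 8.06% NF-kB. Peaks reached these 250 bases in every library at Cx3cl1 and in 6 of 8 H3K9cr libraries at Cxcr4, where the WT controls had none and all 4 UUO libraries were covered in full. At Ccr2 and Ccl12 the 2 libraries that reached it were the WT UUO H3K9cr replicates, at Ccl9 it was ACSS2-/- UUO H3K9cr replicate 1, and at Cxcr1 none did, its peaks lying elsewhere in the window.

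By presence, more members gained a peak with UUO in WT than in ACSS2-/- kidneys, a difference that was not tested. Between the 2 WT UUO and 2 WT control libraries, Ccl4, Ccl5, Ccl9, Ccr2, Ccr9 and Cxcr6 were gained, 6 members where 2.08% of all genes were gained, and Cxcr1 was lost, as were 0.798% of genes. Ccl4 and Ccl5 are inflammatory ligands that attract T cells and monocytes, Ccr9 is a gut-homing receptor and Cxcr6 marks memory and tissue-resident T cells. In ACSS2-/- kidneys Cxcl5 and Cxcl14, an epithelial ligand, were gained, where 0.783% of genes were, and none was lost, where 1.12% of genes were. By cover, Cxcl16 rose by 4.75 kb (SE 0.733, limma adjusted p = 0.0296) within WT, where 1.17% of genes were called higher and 0.74% lower. Ccr2 differed by 2.64 kb in WT (SE 0.541, limma adjusted p = 0.0637). Within ACSS2-/- no member passed in limma, where 0.37% of genes were called higher and 7.38% lower, and 6 members and 3767 genes had an unadjusted p under 0.05. The nearest there were Cxcl5, at 0.748 kb (limma adjusted p = 0.0553), and Cxcl16, at 2.92 kb (limma adjusted p = 0.0566). In a fit of the 4 WT libraries alone Cxcl16 passed, as did Ccl9 and Ccr2, which were at 0 in both WT controls and entered through the UUO libraries alone, where 1.07% of genes were called higher and 0.475% lower. In one of the 4 ACSS2-/- libraries alone limma called no gene, member or not (0% higher and 0% lower), with 6 members and 3239 genes at an unadjusted p under 0.05. The change of Cxcl16 did not pass the interaction test between the genotypes (limma adjusted p = 0.485).

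**Figure D4:**
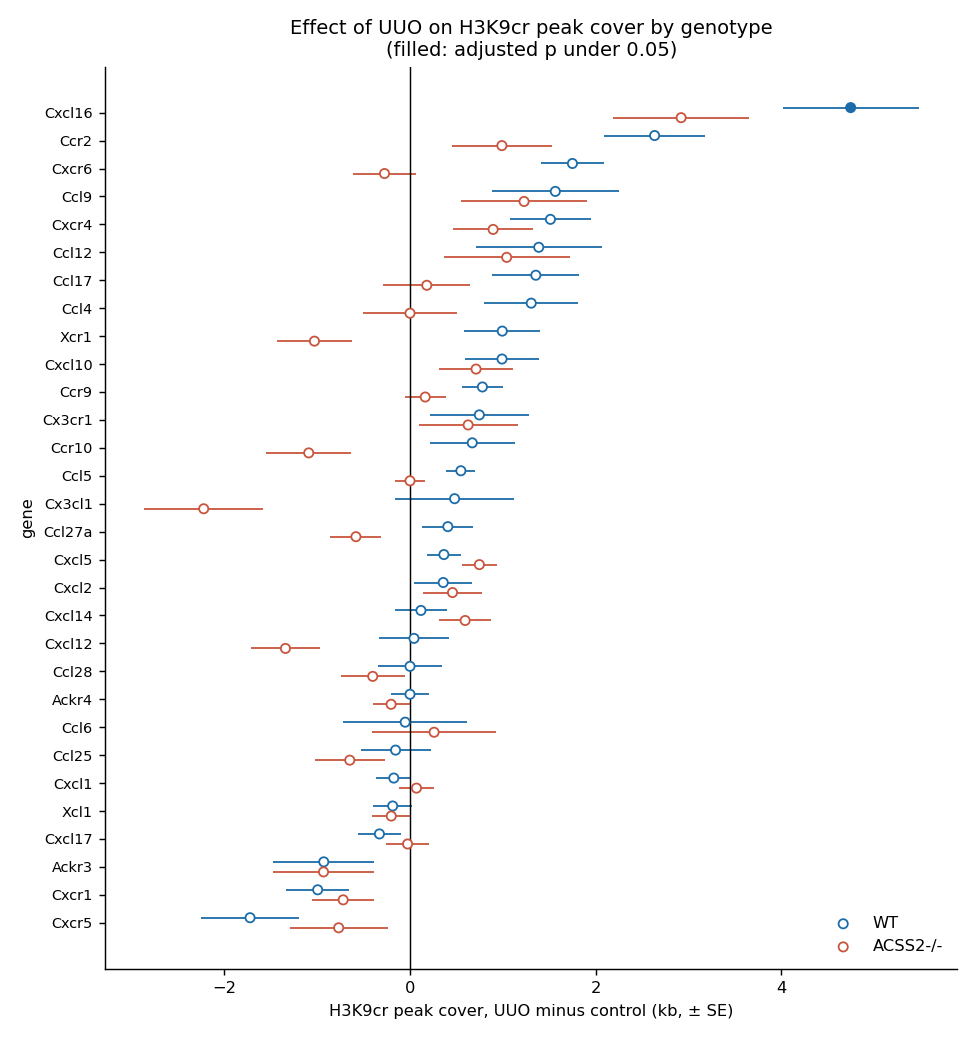
Difference in H3K9cr peak cover between UUO and control (kb, points, with bars of 1 SE) in WT (blue) and in ACSS2-/- (red) for the 30 genes that passed the filter, filled where the limma adjusted p was under 0.05. The 1 filled point is Cxcl16 in WT, at 4.75 kb.

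Between ACSS2-/- and WT UUO kidneys, none of the 30 members tested was called for H3K9cr cover by limma, where 0.0363% of genes were called lower and 0% higher. At an unadjusted p under 0.05 there were 6 members (Ccl4, Ccl5, Ccr2, Ccr9, Cxcr6 and Xcr1) and 915 genes. The change with UUO did not pass the interaction test at any member in limma, where 0.029% of genes were called lower and 0% higher, and 7 members and 1786 genes had an unadjusted p under 0.05. Cxcr6 came nearest in both, with differences of -1.71 kb (SE 0.338, limma adjusted p = 0.258) and -2.02 kb (SE 0.478, limma adjusted p = 0.22). Ccr2 differed between the genotypes in UUO by -1.65 kb (SE 0.541, limma adjusted p = 0.582), and it passed only when ACSS2-/- UUO H3K9cr replicate 1 was left out. On the map of peaks around Ccr2, the WT UUO replicates had a peak of 2.21 and 1.71 kb near the low end of the gene and further peaks within it. ACSS2-/- UUO replicate 1 had peaks of 1.3, 0.498 and 0.68 kb in the gene, and replicate 2 had none.

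**Figure D5:**
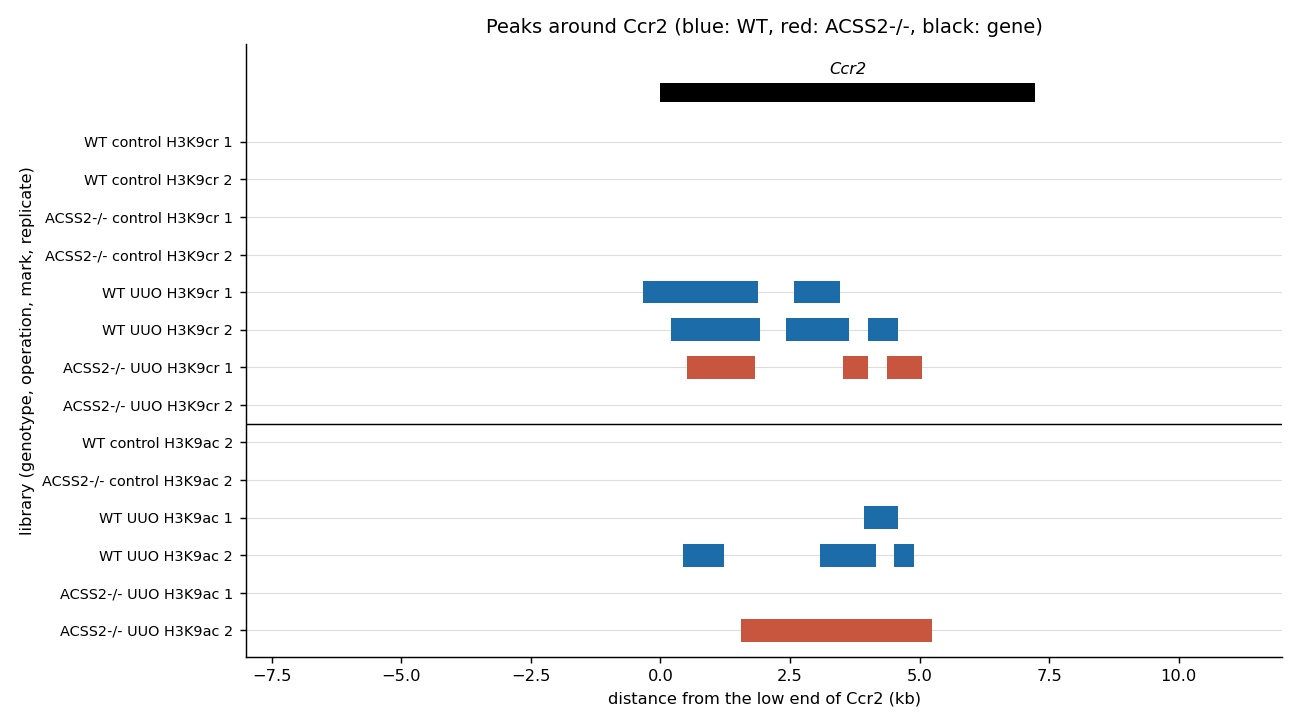
Peaks (bars, WT in blue and ACSS2-/- in red) in each of the 14 libraries around Ccr2 (black), against distance from the low end of Ccr2 in kb. No control library has a peak in the region, and the longest H3K9cr peaks at Ccr2 are 2.21 and 1.71 kb in WT UUO and 1.3 kb in ACSS2-/- UUO replicate 1.

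By presence, Ccl4 and Ccl5 were lost in ACSS2-/- UUO relative to WT UUO, where 0.647% of genes were, and none was gained, where 0.297% were. Ccl5 had 0.517 and 0.579 kb in WT UUO and none in the other 6 H3K9cr libraries, and Ccl4 had 2.23 and 0.386 kb in WT UUO and none elsewhere. The Ccl5 peaks of the 2 WT UUO libraries did not overlap. They lay at chr11:83529226-83529742 in replicate 1 and chr11:83532940-83535289, partly outside the window, in replicate 2. In WT UUO H3K9cr replicate 1 a single peak was shared by Ccl3 and Ccl4, whose annotated spans overlap. Cxcr6 had 1.27 and 2.23 kb in WT UUO and 0.076 and 0 kb in ACSS2-/- UUO. The cover of both ACSS2-/- libraries lay below that of both WT libraries at 8 members in UUO and above it at none, against 16.9% and 5.65% of all genes.

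The lists of the 2 ACSS2-/- UUO kidneys differed from each other, also in length. By the number in the peak names, mouse 3 (H3K9cr replicate 1 and H3K9ac replicate 2) held 35638 H3K9cr and 24571 H3K9ac peaks. Mouse 2 held 27530 and 17271, and the part of list length in the differences that follow was not tested. Mouse 3 had peaks of both marks at Ccr2, Ccl12, Ccl6 and Cxcr6, and mouse 2 had neither mark at any of these. The reverse pattern was found at none of the members. Ccr2 measured 1.98 kb of H3K9cr and 2.46 kb of H3K9ac in mouse 3, and Ccl12 2.08 and 1.1 kb. At Cxcr6 the marks of mouse 3 lay at opposite ends, with 0.076 kb of H3K9cr at the far end and 0.856 kb of H3K9ac at the start. Over all 20560 genes, 309 (1.5%) carried both marks in mouse 3 and neither in mouse 2, and 15 (0.073%) the reverse. Without the H3K9cr library of mouse 3, 7 members were lost in ACSS2-/- UUO relative to WT UUO (Ccl4, Ccl5, Ccl12, Ccr2, Ccr9, Cxcl2 and Cxcr6), where 2.45% of all genes were, and without the other, the list was still Ccl4 and Ccl5. Without WT UUO H3K9cr replicate 2, Ccl3 and Ccr1 joined Ccl4 and Ccl5, where 1.95% of genes were lost.

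Between control kidneys, no member was called by limma in either direction, as 0% of 13785 genes were called higher and 0% lower. At an unadjusted p under 0.05 there were 3 members (Cx3cl1, Cxcl12 and Xcr1) and 1839 genes. Cx3cl1, the transmembrane ligand of Cx3cr1, had 4.48 and 5.19 kb in WT and 6.93 and 8.15 kb in ACSS2-/- control (difference 2.71 kb, SE 0.641, limma adjusted p = 0.191), and Cxcl12 had 1.62 and 1.58 kb against 3.38 and 2.68 kb. By presence Ccl9 was gained in ACSS2-/- control, where 0.696% of genes were, and Cxcl5 was lost, where 0.136% were. Cover was higher without overlap in ACSS2-/- control at 8 members, as at 26.3% of all genes, and the ACSS2-/- control lists were also the longest of the H3K9cr lists, with 45014 and 37456 peaks.

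For H3K9ac, UUO was compared with control over 4 and 2 libraries, and the spread came from the UUO groups alone because each control group had 1 library. Ccr2 was again at 0 in the controls, had 0.366 and 1.19 kb in WT UUO and 0 and 2.46 kb in ACSS2-/- UUO, and did not pass the test (limma adjusted p = 0.378). Cxcl16 measured 3.86 and 4.07 kb in control and 3.53 to 6.58 kb in UUO. The 3 members called, of 17 tested, were lower. Cxcr5 had 2.35 and 3.33 kb in control and 0.404 to 0.814 kb in UUO (difference -2.22 kb, SE 0.218, limma adjusted p = 0.0279). All of this cover lay at the low end of Cxcr5 and none at the high end, and the window of Cxcr5 also holds an end of Bcl9l. Cxcl12, the homeostatic ligand of Cxcr4, had 2.56 and 3.43 kb against 0.99 to 1.98 kb (difference -1.47 kb, limma adjusted p = 0.0418). Cxcl10 had 1.25 and 0.866 kb against 0, 0, 0 and 0.371 kb (difference -0.965 kb, limma adjusted p = 0.0413).

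Calls toward lower cover were common in this comparison, at 11.7% of 13073 genes, against 0.0306% toward higher, and the median gene differed by -0.728 kb. After the libraries were scaled to the same total cover the median was 0.0483 kb, 0 members and 131 genes were called, all lower, and the adjusted p of the 3 members was 0.0842 to 0.46. All 3 calls were also lost without the ACSS2-/- control library or without either WT UUO library. By presence no member was gained or lost, where 0.0924% and 1.13% of genes were. The UUO lists held 15988 to 24571 peaks and the control lists 25585 and 32760.

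Between genotypes in UUO, H3K9ac cover differed at no member by limma, where 0% of genes were called higher and 0% lower, with 3 members (Ackr3, Ccl27a and Cxcl12) and 666 genes at an unadjusted p under 0.05. By presence Ccl27a, a skin-homing ligand whose window holds an end of Il11ra1, and Cx3cr1 were gained in ACSS2-/- UUO, where 0.948% of genes were, and none was lost, where 0.0778% were. Cx3cr1 had 0.501 and 1.48 kb of H3K9ac in ACSS2-/- UUO and none in WT UUO.

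Between the marks, Cx3cl1, Ccl17 and Ccl25 differed. Cx3cl1 carried 4.48 to 8.15 kb of H3K9cr and 1.47 to 4.57 kb of H3K9ac, a difference of 2.44 kb in group means (SE 0.488, limma adjusted p = 0.014). The excess lay at the far end of the gene, where H3K9cr covered 2.37 to 5 kb and H3K9ac 0 to 1.3 kb. At the start the ranges overlapped, at 2.03 to 3.26 kb and 1.47 to 3.97 kb, and the difference over start sites alone was -0.256 kb. Ccl17, a ligand of Ccr4 on T cells, had H3K9cr in 7 of 8 libraries and H3K9ac in 0 of 6 (1.04 kb, SE 0.231, limma adjusted p = 0.0195). It passed the filter through H3K9cr alone, and without the filter it was not called (limma adjusted p = 0.054). Ccl25, a ligand of Ccr9, went the other way, with 1.66 to 2.97 kb of H3K9cr and 2.27 to 4.39 kb of H3K9ac (-1.38 kb, SE 0.231, limma adjusted p = 0.00762), in a window that also holds an end of Elavl1. Of 14048 genes, 5.9% (829) were called higher in H3K9cr and 8.72% (1225) lower. With the same number of longest peaks in each library these were 482 and 1817. With the kidney as a block, by the mouse number in the peak names, 11 genes were called and none of the 3 passed (adjusted p = 0.0684, 0.0871 and 0.0919 for Cx3cl1, Ccl17 and Ccl25).

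By presence in WT UUO, 9 members had H3K9cr in both libraries and H3K9ac in neither (Ccl4, Ccl5, Ccl9, Ccl12, Ccl17, Ccl27a, Ccr9, Cxcl2 and Cxcl10), where 3.4% of genes did, and the reverse was found at no member and 0.0486% of genes. In ACSS2-/- UUO the only member of the first kind was Ccl17, where 1.23% of genes were, and the reverse was again at none, where 0.175% were. Over all libraries 15 members had a peak of H3K9cr somewhere and never one of H3K9ac, and Ccl7 alone had the opposite, with 1.15 kb of H3K9ac in ACSS2-/- UUO replicate 2. The shares of all genes with these patterns are not given here, and H3K9cr had 8 libraries against 6 for H3K9ac. The counts are therefore not read as a trait of the members. H3K9cr lists held 27530 to 45014 peaks and H3K9ac lists 15988 to 32760, and 20.8 ± 3.81 loci (SD, n = 8) against 14.3 ± 3.39 (SD, n = 6) had a peak. With the longest 15988 peaks of each library the difference of 6.42 loci turned to -0.708. The change with UUO differed between the marks at no member by limma, where 1.72% of genes were called more positive in H3K9cr and 0.142% more negative. There were 6 members and 3536 genes at an unadjusted p under 0.05, and the nearest was Cxcl10, at 1.82 kb (SE 0.406, limma adjusted p = 0.0546).

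A list of 43 partners of chemokine signalling held mainly proteins that act inside the cell (G proteins, kinases, arrestins and small GTPases), with some integrins, the platelet chemokines Pf4 and Ppbp, related receptors and the proteoglycan Sdc4. Of these, 42 were tested for H3K9cr in UUO, and 10 were called higher and 2 lower, where 2.29% and 8.94% of all genes were. The higher ones were the G protein subunit Gng2, the PI3K-gamma subunits Pik3cg and Pik3r5, Rac2 and its activator Dock2, the kinases Fgr, Jak3 and Prkcb, the arrestin Arrb2 and the chemerin receptor Cmklr1. Cmklr1 differed by 2.28 kb (SE 0.209) and Pik3r5 by 1.8 kb (SE 0.253), with limma adjusted p of 0.00282 and 0.00755. Dock2, Pik3r5, Prkcb and Rac2 had no peak in any control and passed the filter through UUO alone. The lower ones were Gnai3 and Sdc4. In ACSS2-/- against WT UUO none of the 42 was called. For H3K9ac in UUO 40 were tested, none was called higher, and Rasgrp2 and Sdc4 were called lower, 2 of 40 where 11.7% of genes were.

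Some leukocyte markers were also called. Of 5 genes used by all leukocytes (Ptprc, Cd52, Cd53, Coro1a and Laptm5), all 5 were called higher in H3K9cr in UUO, and their summed cover was 0 to 2.68 kb in the 4 controls, 16.1 and 17 kb in WT UUO and 6.91 and 14.7 kb in ACSS2-/- UUO. Ptprc and Cd53 had no peak in any of these controls and passed the filter through UUO alone, as did Cd3d, Cd3e, Lyz2 and Col1a1, named next. Of 10 T, NK and B cell markers, 6 were tested and Cd3d, Cd3e and Cd3g were called higher. Their sum was 3.9 to 4.73 kb in control, 13.9 and 14.6 kb in WT UUO and 4.02 and 4.46 kb in ACSS2-/- UUO, and the B cell marker Ms4a1 had no peak in any H3K9cr library. Cd3d, which encodes a subunit of the T cell receptor complex, fell by 4.2 kb in ACSS2-/- against WT UUO (limma adjusted p = 0.00103). Of 10 macrophage and neutrophil markers, 7 were tested and Cd14 and Lyz2 were called higher, with sums of 4.22 to 7.01 kb in control, 12.1 and 16.1 kb in WT UUO and 6.1 and 13 kb in ACSS2-/- UUO, while S100a8, S100a9 and Itgam had no peak in any library. Of 7 proximal tubule markers, 5 were called lower in UUO, with 15.1 to 26.6 kb in control and 1.29 to 4.53 kb in UUO. Also in H3K9cr, of 5 stromal markers Col1a1 was called higher, of 6 distal nephron markers Aqp2 was called lower, and none of 5 endothelial and 4 podocyte markers was called. For H3K9ac the all-leukocyte sum was 1.6 and 2.08 kb in control and 7.54 to 14.6 kb in UUO. In that mark Cd52 was called higher in UUO, and Cd4, Aqp2, the podocyte marker Podxl and 5 of 7 proximal tubule markers were called lower. The part of these cell types in the changes at chemokine and receptor genes was not tested.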

How the data were processed

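H3K9cr and H3K9ac ChIP-seq libraries of whole mouse kidney were used as 14 peak lists. The lists deposited by the authors hold positions only (chromosome, start, end and a peak name), with no height, score, q-value or strand, so read-based tests were not possible and the study's own differential test on reads was not used. Per the labels and methods, fixed chromatin was immunoprecipitated and sequenced as paired ends, reads were aligned with Bowtie2, filtered for organelle, low-quality and duplicate reads, and called with MACS2 per library, and the submitters' processing notes name mm10 and ChIPseeker. Versions and the control used for peak calling are not given in the sources used here. A short peak list can come from low depth or weak enrichment, which the lists cannot tell apart.

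Peaks were joined to RefSeq genes (GRCm38.p6, the same assembly as mm10) by an overlap of at least 1 bp with windows of 3 kb around either gene end, since the gene table gives no transcript start for every gene. Cover was the length of window under peaks, and differed from a bedtools 2.31.1 count at 0 of 20560 genes in each of 2 lists checked. Groups came from the labels. Differences in cover were fitted with limma 3.58.1 (trend, R 4.3.3) over all genes with cover in at least 2 fitted libraries, the 8 H3K9cr libraries, the 6 H3K9ac libraries or all 14, with Benjamini-Hochberg adjustment and a threshold of 0.05. The fits were tested on simulated data. A gene that was not called is not shown to be unchanged. A gene was gained where every library of the first group and none of the second had a peak, and lost in the opposite case. Python 3.11.15, numpy 2.4.6, pandas 2.3.3 and matplotlib 3.10.9 were used. Promoter sequences are RefSeq's, and 46 of 60 genes had an entry. Of the 61 genes found by the rule, 1 is not reported here.

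The genes, lists and tests were chosen with earlier results of these data known. Genes were named if called, gained or lost in any comparison, if marked in every library of a mark, or if much studied in the injured kidney (Ccl2, Ccl5, Ccl20, Cx3cl1, Cx3cr1, Ccr2, Cxcl1, Cxcl10, Cxcl12, Cxcl16, Cxcr4, Cxcr6 and Ackr3). Ccl3, Ccl6, Ccl7, Ccl8, Ccl11, Ccr1, Cxcl9, Cxcl13 and Cxcr2 were named after their values were seen. Alternatives were the window, the overlap, the peak length, equal numbers of peaks, a log2 scale with 100 bp added, no filter, replicate blocks and leaving out each library. Scaling to the library's total cover and the difference between the UUO effects on the marks were added after seeing the data.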

Additional observations from a re-analysis of the deposited data

How the results depend on the processing

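Counts here are members called. The 4 for H3K9cr in UUO became 0 within 1 kb windows, 2 at start sites, 2 with an overlap of at least 50%, 2 with equal numbers of longest peaks, 2 without the filter, 0 in the ACSS2-/- libraries alone and 1 to 5 without 1 library. Cxcl16 kept its call in 16 of 18 alternatives, Ccr2 in 8 of 19, Cxcl5 in 6 of 17 and Cxcr4 in 5 of 19. The 0 for ACSS2-/- against WT in UUO and the 0 for the interaction each became 1 (Ccl5) without the filter, and 0 to 1 (Ccr2, without ACSS2-/- UUO H3K9cr replicate 1) and 0 without 1 library. The control comparison of genotypes stayed at 0 in all its alternatives. The 3 for H3K9ac in UUO became 1 within 1 kb, 0 on the log2 scale and 0 with scaled cover, and the 0 for H3K9ac between genotypes in UUO stayed at 0 in those settings. Both counts varied with the library left out, and so did the calls among genes outside the members. Leaving out 1 H3K9ac library leaves a group with 1 library or none. The 3 between marks became 1 within 1 kb, 6 over whole genes, 1 at start sites, where the Cx3cl1 difference turned to -0.256 kb, 6 on the log2 scale and 3 to 5 without 1 library. By presence, the 0 gained for H3K9cr in UUO became 1 with peaks of 500 bp or longer and 0 to 2 without 1 library (2 without ACSS2-/- UUO replicate 2), and the 0 lost became 1 with such peaks and 0 to 1 without 1 library. The 2 lost in ACSS2-/- against WT UUO became 0 within 1 kb, 1 at start sites, 0 with equal numbers of longest peaks and 2 to 7 without 1 library, and the 0 gained became 0 to 3. The difference in loci ranged without 1 library from 2.92 to 5.92 for H3K9cr in UUO, from 5.67 to 7.75 between marks, from -7 to 2 between genotypes in UUO (2 without ACSS2-/- UUO H3K9cr replicate 2) and from -0.833 to 2.17 for H3K9ac in UUO (-0.833 without ACSS2-/- UUO H3K9ac replicate 2). Within 1 kb windows the last turned to -0.25, and with equal numbers of longest peaks the difference between marks turned to -0.708. Fewer libraries or genes tested account for part of these changes by construction, and otherwise the cause was not tested.

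With the label's replicate number as a block, the calls for H3K9ac in UUO went from 3 to 0 and those between marks from 3 to 0. With the mouse number of the peaks as a replicate block, the calls went from 4 to 0 for H3K9cr in UUO and from 3 to 0 between marks, and for H3K9ac alone that block could not be fitted. For H3K9cr in UUO the mouse number partly follows the operation, so that loss of calls decides nothing about them. Deviations from the group means in ACSS2-/- UUO correlated between the marks at r = -0.4 over 20560 genes by the label numbers. By the numbers in the peak names r was 0.4, which is the same value with its sign turned, because each group had 2 libraries. H3K9cr replicate 1 and H3K9ac replicate 2 were the longer lists there, so the sign cannot decide which numbers pair the samples. Between groups of H3K9cr libraries r was -0.0747 to 0.215 by the label numbers. Each r rests on a single difference between replicates per group, so it cannot decide whether these numbers paired the samples. Presence as 0 or 1 could not be fitted because most genes had the same value in every library. Read depth behind a peak is unknown, so absence of a peak is not absence of the mark.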

Other observations

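Acss2 had a peak of both marks in all ACSS2-/- libraries. Ccl28, a mucosal ligand, had H3K9cr in 2 libraries only, with 1.13 kb in ACSS2-/- control replicate 1 and 0.331 kb in ACSS2-/- UUO replicate 2. Cxcl14 had 1.77 kb of H3K9ac in ACSS2-/- UUO replicate 2, 1.03 kb in the ACSS2-/- control and 0.723 kb in WT UUO replicate 2, and none in the other 3 H3K9ac libraries. Both genes were chosen after their values were seen.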
